A study of Canis lupus familiaris with 9 samples.

Results

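The inflammasome sensors and pyroptosis genes were read in macrophages grown from the blood monocytes of 3 unrelated, healthy, spayed female beagles of about 2 years. Adherent monocytes were kept for 7 days in M-CSF at 10 ng/mL, a growth factor that all 3 groups received. After these 7 days, cytokines were added for 24 h before RNA was taken, each at 20 ng/mL. M2 cultures had canine IL-4 together with canine IL-13, M1 cultures had canine IFN-γ, and M0 cultures had none. Each group had 3 samples, 9 in all, and messenger RNA was sequenced in bulk. The methods name no LPS or other inflammasome trigger for the cultures that gave RNA. Members were taken by gene symbol: 10 symbols were named, and 7 of them were matched among the 12696 protein coding genes of the authors' table. These are MEFV, NLRP1, NLRP3, PYCARD, CASP4, GSDMD and NINJ1. NLRP12, NLRC4 and CASP1 were not analysed here.

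Inflammasomes are protein platforms of the innate immune system. A sensor such as pyrin or NLRP3 detects a microbial product or cell damage, recruits the adaptor ASC, and through it gathers an inflammatory caspase that becomes active by proximity. The caspase matures interleukin-1β and interleukin-18 and cleaves gasdermin D, whose released end forms pores in the plasma membrane. The cell then swells and, in mouse macrophages, is torn open by NINJ1, a form of lytic death called pyroptosis. In macrophages several of these genes need a priming signal that raises their transcripts before a trigger can act.

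The values are the authors' mean of each group, in counts normalized for sequencing depth. They carry no spread between dogs, so none of the differences below was tested against replicate error, and whether any of them exceeds the variation between these 3 dogs is not known from these values. A log2 ratio is that of the group means. The study's limit of 1.5 on the log2 scale, a fold of 2.83, is used to mark large ratios, and 10902 genes with a mean of at least 50 in some group form the background. All 7 matched members are among them, with the lowest mean at 604. Beyond the nominal number of raw reads in the methods, the depth of single libraries is not known here. The group means summed to between 26728643 and 28039918 normalized counts.

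The cultures carried macrophage transcripts throughout. Of 10 listed monocyte and macrophage genes 9 were matched, with summed means of 244234 in M2, 119008 in M1 and 281481 in M0. Markers of T cells summed to 1389 in M2, 5349 in M1 and 1664 in M0, of which CD2 alone made up 5032 in M1, while CD3E was at 162 in M2, 88.8 in M1 and 92.8 in M0. The dendritic cell list summed to 60471 in M2, 1398 in M1 and 2688 in M0, of which CD1C made up 60136 in M2. The part of other cells in the results below was not tested. The 5 matched NK cell genes stayed at or under 28.6 in every group. In the B cell list CD79A was at 12039 in M2, 9856 in M1 and 10511 in M0. MS4A1, which encodes CD20, was at or under 18.2 in every group. Without CD79A that list summed to 311 in M2, 491 in M1 and 404 in M0. Of the fibroblast list only PDGFRB was matched, at 159 in M2, 466 in M1 and 125 in M0. Of the platelet list only ITGA2B was matched, at or under 42.8 in every group. In bulk samples, fewer cells of a type and less RNA per cell cannot be told apart.

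**Figure D1:**
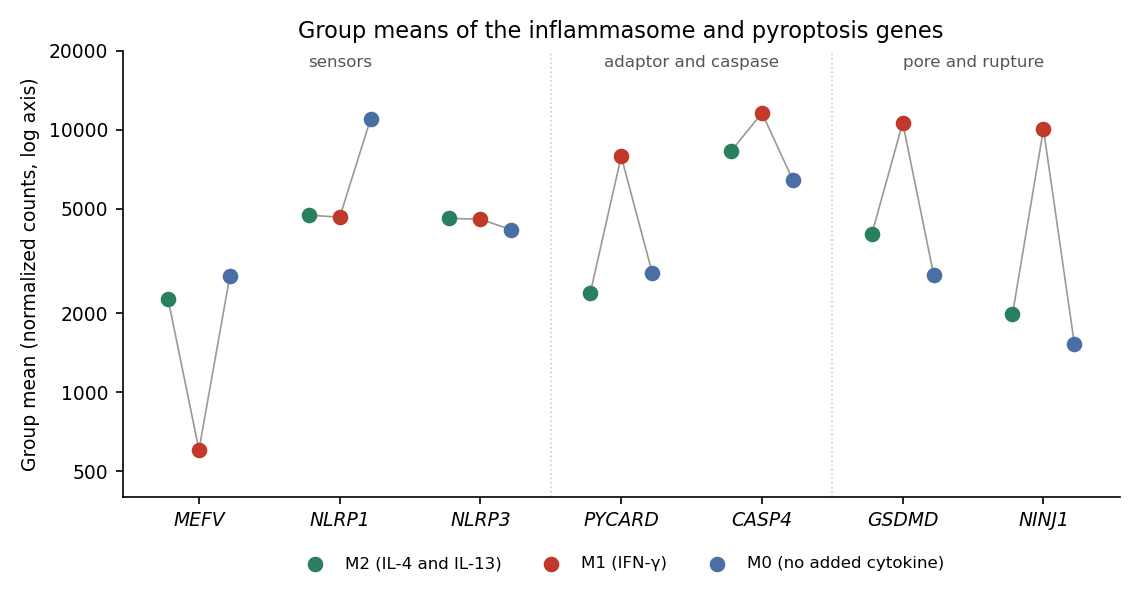
Authors' group mean of each matched gene in normalized counts (log axis) for M2, M1 and M0 macrophages, 1 point per group and no error bars because the means carry no spread. PYCARD, CASP4, GSDMD and NINJ1 are highest in M1, MEFV is lowest in M1 at 604, NLRP1 is highest in M0 at 11022, and the NLRP3 means differ by at most 1.11-fold.

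The sensors and the genes that act after them were ordered differently across the groups. The adaptor gene PYCARD, the caspase gene CASP4 and the lytic genes GSDMD and NINJ1 all had their highest mean in M1 macrophages. None of the 3 matched sensors had its highest mean there: MEFV and NLRP1 were highest in M0, and NLRP3 was nearly level. In M1 over M0, 3 of the 7 members passed the log2 limit of 1.5, where 7.16% of all genes passed in either direction. Of these, 2 were higher, where 2.79% of all genes were, and 1 was lower, where 4.38% were. At a log2 limit of 1, a 2-fold difference, 5 of 7 passed, where 14.4% of all genes did. The median log2 ratio of the members was 0.85, against 0.01 over all genes kept, and their median size regardless of sign was 1.47, against 0.35. The members were chosen with earlier results of these data known. The contrasts with all genes, here and below, are therefore a description only.

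MEFV encodes pyrin, a sensor that responds when bacterial toxins switch off RhoA GTPases and whose human variants cause familial Mediterranean fever. Its mean was 2274 normalized counts in M2, 604 in M1 and 2781 in M0. The IFN-γ treated cultures stood alone at the low end, while M2 and M0 lay close together. The log2 ratio was -2.20 in M1 over M0, a mean 0.217 times that of M0, and 1.94% of genes had a lower ratio. In M2 over M0 the log2 ratio was -0.29, in the range where 63.6% of all genes had a smaller ratio in size. M2 macrophages held 3.76 times the MEFV mean of M1 macrophages. MEFV is also a gene of neutrophils, so that list was read beside it: of 10 listed neutrophil markers 4 were matched, and they summed to 214 in M2, 548 in M1 and 970 in M0. Among them CSF3R, the G-CSF receptor, was at 92.9 in M2, 376 in M1 and 664 in M0, and S100A12 was at 23.0 in M2, 10.2 in M1 and 229.7 in M0. The other matched markers were not highest in M0: LTF was at 68.5 in M2, 159 in M1 and 74.7 in M0, and MPO was at 29.3 in M2 and 3.61 in M1, with its lowest mean in M0. CSF3R made up most of the sum in M1 and M0, and S100A12, like MEFV, had its lowest mean in M1. The list's part in the MEFV result was not tested.

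NLRP1 encodes a sensor that, in human cells, is set off by viral proteases and held in check by the dipeptidyl peptidases DPP8 and DPP9. Its mean was 4733 in M2, 4646 in M1 and 11022 in M0. The means of both cytokine-treated groups stood at nearly the same level, 0.429 and 0.422 times the M0 mean. The log2 ratios were -1.22 in M2 over M0 and -1.25 in M1 over M0, which share the M0 cultures, and 0.03 in M2 over M1. NLRP1 was the member with the lowest ratio in M2 over M0, where 2.39% of genes lay lower. It was the only matched member past a log2 ratio of 1 in that comparison.

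NLRP3 encodes the best studied sensor of macrophages, which answers to potassium loss, crystals and many microbial products. Its mean was 4599 in M2, 4564 in M1 and 4162 in M0. These 3 means lay within 1.11-fold of each other, the narrowest range of the 7 members. The log2 ratios were 0.14 in M2 over M0, 0.13 in M1 over M0 and 0.01 in M2 over M1. This is a common pattern: 3054 genes, or 28.0% of those kept, had both ratios to M0 within 0.25 of those of NLRP3. No error is known for these ratios, so they do not show that the transcript was the same in the groups.

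**Figure D2:**
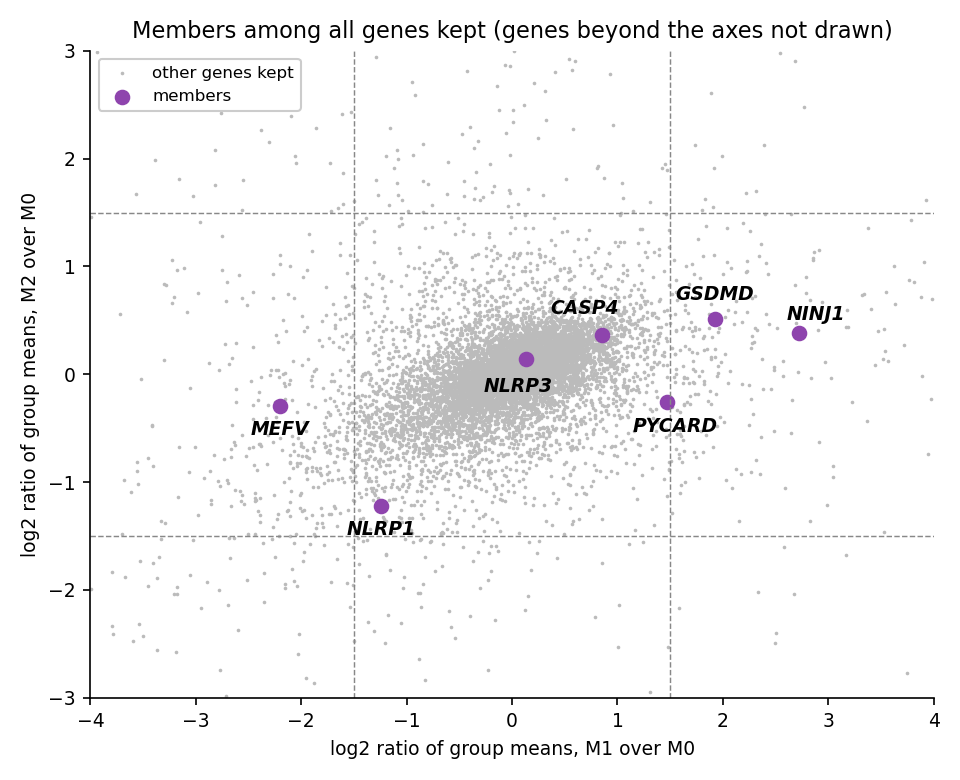
Log2 ratio of group means in M1 over M0 (horizontal) and in M2 over M0 (vertical) for the 10902 genes kept, with the 7 members in purple and dashed lines at 1.5 in either direction; both axes share the M0 means, and 118 genes lie beyond the limits drawn. MEFV lies far left at -2.20, NINJ1 far right at 2.72, NLRP1 at the lower left with both ratios near -1.2, and NLRP3 in the dense center.

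PYCARD encodes ASC, the adaptor that joins a sensor's pyrin domain to a caspase's recruitment domain. Its mean was 2387 in M2, 7923 in M1 and 2859 in M0. The M1 mean stood clear of the others, which lay within 1.20-fold of each other. The log2 ratio was 1.47 in M1 over M0, just under the limit of 1.5, a fold of 2.77 that 2.91% of genes exceeded. In M2 over M0 it was -0.26, and in M2 over M1 it was -1.73, a mean in M2 0.301 times that in M1. In RefSeq's annotation of another dog assembly, UU_Cfam_GSD_1.0, PYCARD overlaps a long noncoding RNA gene. Whether the counting used strand is not given in the sources used here, so reads of PYCARD and of the overlapping gene may not be separable. The same holds for CASP4, which overlaps another long noncoding RNA gene in that annotation.

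CASP4 in human cells encodes the caspase that binds bacterial lipopolysaccharide in the cytosol and cleaves gasdermin D directly. Carnivores are known to carry a hybrid of caspase-1 and caspase-4, and the same RefSeq annotation gives CASP1 as another name of the dog gene CASP4 and has no separate entry with the symbol CASP1. The CASP4 values here are therefore those of the gene that RefSeq lists under both names, and they cannot be assigned to either caspase as known from human cells. Its mean was 8282 in M2, 11589.6 in M1 and 6434 in M0. The order was M1, then M2, then M0, with a spread of 1.80-fold between the outer means, the smallest of the 4 members that peaked in M1. The log2 ratios were 0.85 in M1 over M0, 0.36 in M2 over M0 and -0.48 in M2 over M1. CASP12, the gene next to it in that annotation and a further inflammatory caspase gene, had means of 1697 in M2, 4418 in M1 and 1600.4 in M0. Its log2 ratio of 1.46 in M1 over M0 was larger than that of CASP4, and its ratio of 0.08 in M2 over M0 was smaller.

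GSDMD encodes gasdermin D, the pore former that the inflammatory caspases cut. Its mean was 4000.4 in M2, 10634 in M1 and 2803 in M0. The M1 mean was the highest by a wide margin, and M2 lay between M1 and M0. The log2 ratio was 1.92 in M1 over M0, a 3.79-fold higher mean that 1.72% of genes exceeded, and -1.41 in M2 over M1. In M2 over M0 it was 0.51, a fold of 1.43, the highest ratio of any member in that comparison. MROH6, the next gene in the RefSeq order, had low means of 22.7 in M2, 54.9 in M1 and 19.2 in M0, with a log2 ratio of 1.52 in M1 over M0. ZC3H3, on the other side of GSDMD, had log2 ratios of -0.04 in M1 over M0 and -0.08 in M2 over M0.

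NINJ1 encodes ninjurin 1, a small membrane protein that in mouse macrophages clusters and ruptures the plasma membrane after the gasdermin pores have formed. Its mean was 1988 in M2, 10057 in M1 and 1524 in M0. It had the widest range of the 7 members, with the M1 mean far above both others. The log2 ratio was 2.72 in M1 over M0, a 6.60-fold higher mean, and only 99 of 10902 genes had a higher ratio. In M2 over M0 the log2 ratio was 0.38, a fold of 1.30, and in M2 over M1 it was -2.34. CARD19 and WNK2, its neighbors in the RefSeq order, had log2 ratios of 0.36 and 0.88 in M1 over M0. NINJ2, a related gene of the same family, had means of 21.1 in M2, 22.7 in M1 and 30.0 in M0, under the limit of 50 in each group.

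In M2 over M0, 0 of the 7 members passed the log2 limit of 1.5, where 3.00% of all genes did, and NLRP1 alone passed a limit of 1, where 6.56% did. With 7 genes, both counts are near those shares and say nothing particular of the members. Of the 7 ratios 4 were above 0 and 3 below, with a median of 0.14 against 0.02 over all genes kept. Their median size regardless of sign was 0.36, against 0.20 over all genes kept. The ratio of M2 over M1 follows from the other ratios by arithmetic, and the M2 means lay within 1.43-fold of M0 for every matched member except NLRP1. In M2 over M1, 3 of 7 members passed the limit, where 7.04% of all genes did. MEFV was higher in M2, where 4.04% of all genes were, and PYCARD and NINJ1 were lower, where 3.01% were. GSDMD, at -1.41, passed only a limit of 1, as 4 of 7 members and 12.9% of all genes did. The median log2 ratio of the members was -0.48, against 0.00 over all genes kept.

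**Figure D3:**
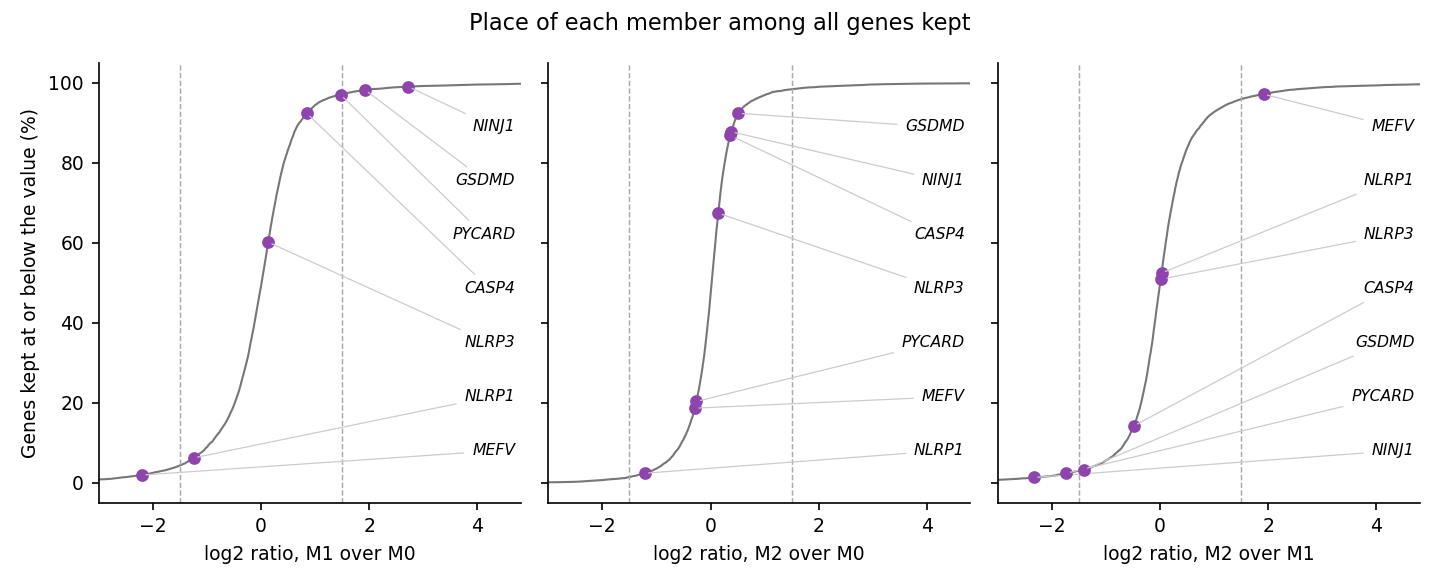
Share of the 10902 genes kept (%) at or below each log2 ratio of group means (gray curve), with the 7 members as points, in M1 over M0, M2 over M0 and M2 over M1; dashed lines mark 1.5 in either direction. In M1 over M0 the points reach both ends, from MEFV with 1.94% of genes below it to NINJ1 with 0.91% above it, whereas in M2 over M0 only NLRP1 lies in the lower tail, with 2.39% of genes below it.

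Of the genes for cytokines that the pathway releases, IL1B had another order across the groups than its lytic genes. IL18 was higher in M1 than in M0, as the lytic genes were, at a log2 ratio of 0.60. Of 6 listed genes, for interleukin-1, interleukin-18, their antagonists and interleukin-33, all but IL33 were matched and kept. In M1 over M0 the median log2 ratio of these 5 was -0.93. IL1B encodes interleukin-1β, a cytokine that an inflammatory caspase cleaves to its mature form. It had means of 3635 in M2, 239.7 in M1 and 2207 in M0. These gave log2 ratios of -3.20 in M1 over M0 and 3.92 in M2 over M1. IL1RN, which encodes the receptor antagonist, had 5084 in M2, 1061 in M1 and 4954 in M0, with log2 ratios of -2.22 in M1 over M0 and 0.04 in M2 over M0. IL1A was at 685 in M2, 181 in M1 and 345 in M0. IL18, whose product needs the same cleavage, had nearly equal means of 9161 in M2 and 9118 in M1, against 5997 in M0. The M1 group had the highest GSDMD and NINJ1 means and the lowest IL1B mean. The paper names inflammasome signaling as a process lower in M1 than in M0. For interleukin-1β protein released after LPS, it reports a trend to more in M1 that was not significant. That reading is of stimulated cells and of protein, unlike the RNA here.

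Further genes of the NLR family were read together with sensors of nucleic acids in a list of 15 genes, of which 6 were matched and kept, 5 NLR genes and ZBP1. In M1 over M0, 2 of these 6 passed the limit of 1.5, both higher, where 2.79% of all genes were. NLRC5, which drives transcription of MHC class I genes, had means of 2551 in M2, 14621 in M1 and 2807 in M0, a log2 ratio of 2.38 in M1 over M0. ZBP1, a sensor of nucleic acids in the Z form that feeds into cell death, had 1873 in M2, 7025 in M1 and 1993 in M0, a ratio of 1.82. CIITA, the master regulator of MHC class II, passed the limit in M2 over M0 instead, at 1.63, with means of 15448 in M2, 10373 in M1 and 4989 in M0. NOD1 and NOD2, which sense fragments of bacterial cell wall, had ratios of -0.30 and 0.43 in M1 over M0. The median log2 ratio in M1 over M0 was -1.25 for the 3 sensors and 0.74 for these 6 genes.

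Of 14 further gasdermin, ninjurin and caspase genes 9 were matched and 8 kept. GSDME, a gasdermin linked to lytic death after apoptosis, passed the limit in M2 over M0, at -1.58, with means of 831 in M2, 1571 in M1 and 2475 in M0. It was highest in M0, unlike GSDMD. CASP8, the initiator that can also cut gasdermin D, had a ratio of 0.84 in M1 over M0.

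Among 16 listed partners and brakes of NLRP3 10 were matched and kept, with a median log2 ratio of 0.04 in M1 over M0. PANX1, a channel that releases ATP, had means of 1065 in M2, 5700.2 in M1 and 1870.2 in M0, with log2 ratios of 1.61 in M1 over M0 and -2.42 in M2 over M1. TXNIP, a thioredoxin-binding protein reported to bind NLRP3, ran the other way, with 13729 in M2, 3096 in M1 and 11004 in M0 and a ratio of -1.83 in M1 over M0. KCNK6, a potassium channel, was at -1.13 in M1 over M0. NEK7, the kinase that NLRP3 needs for assembly, was near level at 895 in M2, 1041 in M1 and 915 in M0.

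Genes known to regulate pyrin and NLRP1 had ratios nearer to 0 in M1 over M0 than these sensors. So did most genes: 96.6% of all genes had a smaller ratio in size than MEFV, and 90.0% than NLRP1. The contrast therefore says nothing particular of the regulators. Of 7 listed regulators of pyrin 5 were matched and kept, and 0 passed a log2 ratio of 1 in M1 over M0. Since 14.4% of all genes passed it, 0 of 5 is near the share over all genes. RHOA, the GTPase whose loss of activity pyrin detects, had means of 8844 in M2, 9159 in M1 and 8812 in M0. PKN2, a kinase that keeps pyrin inactive, was at 0.12 in M1 over M0 and -0.27 in M2 over M0. PSTPIP1, a partner of pyrin, had the lowest ratio of the list in M2 over M0, at -0.65. DPP8 and DPP9, the restraints of NLRP1, had ratios of 0.24 and 0.50 in M1 over M0 and of 0.10 and 0.22 in M2 over M0, where NLRP1 was at -1.25 and -1.22. No difference between a sensor and its regulators was tested.

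**Figure D4:**
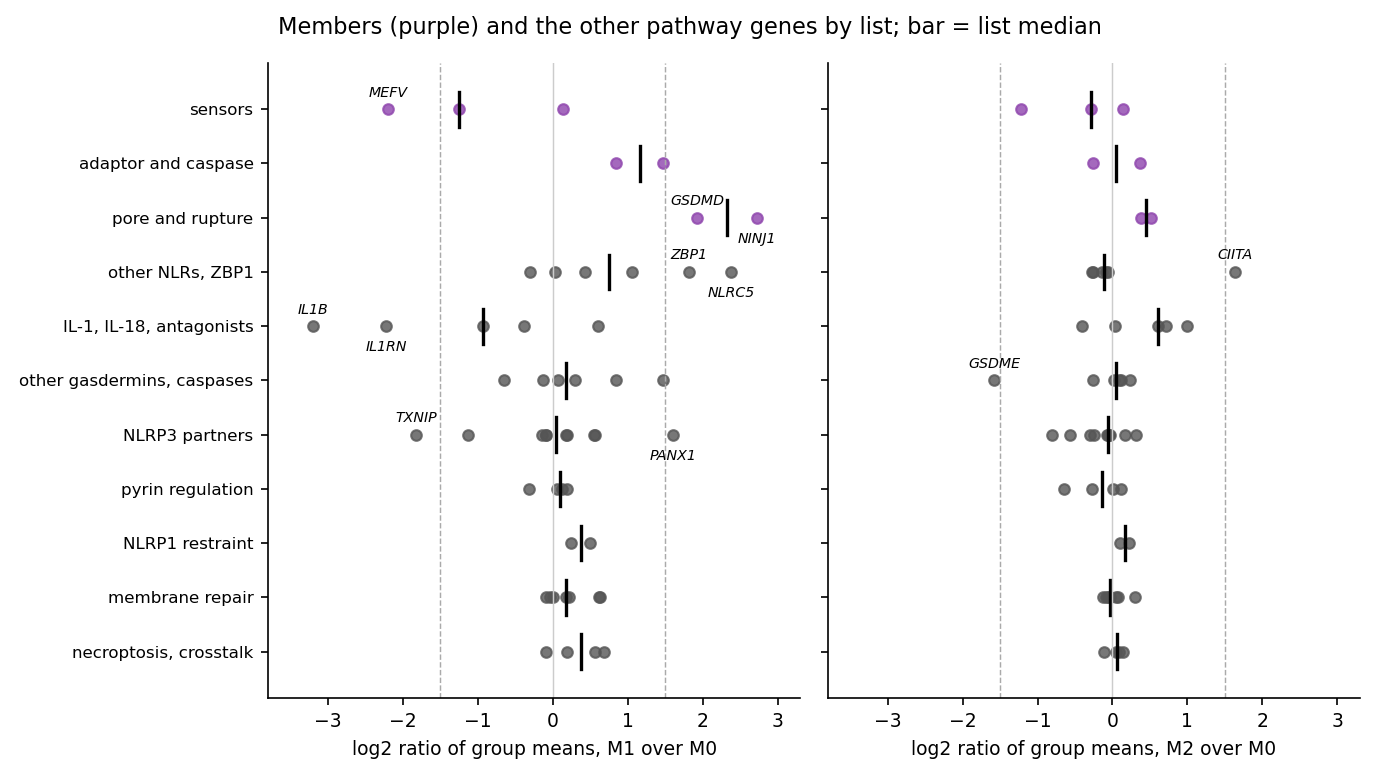
Log2 ratio of group means for M1 over M0 (left) and M2 over M0 (right), with 1 point per gene kept, in rows by role; members are purple, other pathway genes gray, a few genes of the lists are not drawn, black bars are the medians of the points in each row, dashed lines mark 1.5 in either direction, and genes past them are named. In M1 over M0 the purple rows run from a median of -1.25 for the sensors to 2.32 for the pore and rupture genes. The row of IL-1, IL-18 and antagonist genes has a median of -0.93 there.

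The members were also read in groups by their step in the pathway, with the adaptor and the caspase as 1 group. The median log2 ratio in M1 over M0 was -1.25 for the 3 sensors, 1.16 for the adaptor and caspase and 2.32 for the pore and rupture genes. In M2 over M0 the same groups had medians of -0.29, 0.05 and 0.45, a smaller range with the medians in the same order. The order is that of the medians and not of single genes: the adaptor gene PYCARD, which acts before the caspase, lay above CASP4 in M1 over M0, at 1.47 against 0.85, and below the sensor gene NLRP3 in M2 over M0, at -0.26 against 0.14. Both sets of ratios share the M0 means. The groups hold 3, 2 and 2 genes, and the order is a description of them alone.

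By the larger of the differences in their ratios to M0, over the 3 group means, the named gene nearest to NINJ1 was CD40, a costimulatory receptor, at a distance of 0.03 on the log2 scale, followed by FOXS1 at 0.18. CD40 had means of 2406 in M2, 12306 in M1 and 1888 in M0. By flow cytometry, which reads protein and not RNA, the paper reported no rise of CD40 with M1 polarization. Only 4 genes lay within 0.25 of NINJ1, 17 within 0.25 of MEFV, 24 of GSDMD, 32 of PYCARD, 50 of NLRP1 and 524 of CASP4, where NLRP3 had 3054. The nearest to NLRP1 were SLC46A1, a folate and heme transporter, and PLXNC1, a semaphorin receptor, at 0.03 and 0.04. PLXNC1 had means of 20655 in M2, 21031 in M1 and 48469 in M0. The nearest to PYCARD were CELF2, an RNA-binding protein, and LHFPL4, at 0.04 and 0.10, and the nearest to GSDMD were NOLC1, a nucleolar protein, and PSTPIP2, a membrane-bending protein of myeloid cells, at 0.04 and 0.06. For CASP4 they were MNS1 and ITPK1, at 0.01 each, and for NLRP3 DDX56 and ZNF24, at 0.00 each. For MEFV they were SMTNL2 and VWF, at 0.00 and 0.05, with means at or under 75.7 in every group. With only 3 means per gene, close patterns are easily found, so these are a description only.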

How the data were processed

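RNA of 9 cultures, 3 in each of 3 groups, was sequenced as poly(A) libraries. Per the labels and the study's methods, filtered reads went through Partek Flow 7.0, where the authors used STAR 2.7.3a with the CanFam3.1 genome for alignment, HTSeq for gene counts and DESeq2 for normalization and group comparisons. The deposited signal used here is the authors' least squares mean of normalized counts per group, for 12696 protein coding genes. It is scaled between samples but not by gene length, so levels were compared between groups and not between genes, and the planned level per coding length was not computed because no protein length was at hand. The other columns and tables hold the authors' own ratios, p-values and FDRs and were not used. Values per sample were not used, so no test was run and the counted depth per sample is unknown.

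Log2 ratios of the means were computed with Python 3.11.15, pandas 2.3.3 and numpy 2.4.6. The code gave back known ratios put into the means without noise, which checks the arithmetic only. Genes with a mean of at least 50 in 1 of the groups were kept. Named genes are all members, up to 3 genes of each of 8 pathway lists with the largest ratio in any comparison, the 2 nearest patterns of each member and other list genes given as context after their values were seen. List genes not analysed here include IL33, GSDMA, GSDMB, GSDMC, PJVK, CASP10, YWHAE, YWHAQ, TXN, CHMP1B, CHMP3, CHMP4C, VPS4A, MLKL and FADD. A few further list genes are left out of the text and figures. The members and lists were chosen with earlier results of these data known. The immediate neighbors in the RefSeq order were also looked up after the data were seen. RefSeq symbols of UU_Cfam_GSD_1.0 matched 9 of the 10 named symbols. Alternatives were a log2 limit of 1, other filters, a pseudocount of 10 and other scalings.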

Additional observations from a re-analysis of the deposited data

How the results depend on the processing

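With a log2 limit of 1 in place of 1.5, the members past it numbered 5 in M1 over M0, where NLRP1 and PYCARD joined, and 1 in M2 over M0, NLRP1. In M2 over M1 they numbered 4. Without a filter, with a minimum mean of 10, with a pseudocount of 10, scaled to the sum of the means or centered on the median, the counts of members stayed at 3, 0 and 3. The filters could not change these counts, since the lowest mean of any matched member was 604. A pseudocount of 10 is small beside such means. In the 63 log2 ratios of single members recomputed with the pseudocount and both scalings, 0 changed sign, 0 crossed the limit of 1.5, and the largest move was 0.07. No paired analysis was possible because the columns hold a mean of each group and carry no replicate number. For the same reason no replicate could be left out. The sum-scaling shifted all ratios of M1 over M0 by 0.07. The methods give a nominal number of raw reads per sample, but the counted total of each library is unknown here. What depth limits can therefore not be stated.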

Other observations

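Genes that repair the membrane after gasdermin pores open were read from a list of 11 genes of the ESCRT machinery, which pinches off damaged membrane. Of these 7 were matched and kept, and 0 passed a log2 ratio of 1 in any of the 3 comparisons, where 6.56% of all genes did in M2 over M0, 14.4% in M1 over M0 and 12.9% in M2 over M1. With 7 genes, a count of 0 is near those shares. Their log2 ratios in M1 over M0 ran between -0.09 and 0.63, with a median of 0.17. CHMP2B and CHMP4A, at 982 and 1088 in M1 against 636 and 711 in M0, were at the upper end. CHMP4B, a subunit recruited to such pores in mouse cells, had means of 3365 in M2, 3956 in M1 and 3510 in M0.

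In the list for necroptosis and its crosstalk with pyroptosis 4 of 6 genes were matched and kept, and 0 passed a log2 ratio of 1 in any of these comparisons, again near the share over all genes. RIPK1 and TAB2 had ratios of 0.56 and 0.68 in M1 over M0, while RIPK3, the kinase that carries out necroptosis, had means of 1449 in M2, 1271 in M1 and 1360 in M0.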
